A study of Mus musculus with 4 samples.

Results

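The genes examined here encode the acid hydrolases, membrane proteins and proton pump of the lysosome in mouse peritoneal macrophages. A list of 53 gene names was matched to the table of normalized expression, and 52 were found in it. *Atp6v0d2*, a pump subunit known from osteoclasts, was not analysed here. Reads of *Atp6v0c* and its processed pseudogene *Atp6v0c-ps2* were summed, since their transcripts are nearly identical, which left 51 features among 15297. They comprised 8 cysteine cathepsins and legumain, 3 other proteases, and 9 glycosidases and sulfatases. A group of 9 held enzymes and carriers of lipid breakdown, with *Grn* (progranulin) placed among them. The rest were 7 membrane proteins with the regulator *Tfeb*, and 15 features of the vacuolar proton pump (V-ATPase).

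RNA of sorted peritoneal macrophages (CD11b+ F4/80+ Ly6G-) from female BALB/c mice aged 6 weeks was sequenced in 4 libraries, with 1 library per condition. Mice under isoflurane received microcurrent stimulation (MCS) through pads on abdomen and back, at 300 µA and 400 Hz for 15 min, whereas control mice, labelled as non treatment, had the pads without current. Cells were taken at zeitgeber time (ZT) 2, right after the stimulation, and at ZT14, 12 h later, which gave the libraries Cont_ZT2, Cont_ZT14, MCS_ZT2 and MCS_ZT14. No source used here gives the number of mice behind a library, so a difference between libraries cannot be set against the spread between mice.

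Macrophages digest engulfed cells and particles in phagosomes that fuse with lysosomes. There, cathepsins and other proteases cut proteins, glycosidases and sulfatases strip sugars from glycoproteins and glycolipids, and lipases with their activator proteins break down lipids. The V-ATPase pumps protons into the lumen, and most of these enzymes need the resulting acid. Its membrane sector V0 carries the proton through a ring of proteolipid subunits encoded by *Atp6v0c* and *Atp6v0b*, and its cytosolic sector V1 hydrolyses ATP. The transcription factor TFEB binds an E-box in the promoters of many lysosomal genes, and the clock factors CLOCK and ARNTL bind E-boxes with the same core.

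That core, CACGTG, reads the same on both strands, and it was searched in promoter windows from 250 bases before to 50 bases after the start site (RefSeq, GRCm38.p6). Of the 53 names, 43 had such a window, and 14 of them (32.6%) held CACGTG, against 7.15% of all 32851 promoters and 11.7% of the 9515 genes with a promoter and a level above 1 CPM. Members and expressed genes were counted if any of their windows held the letters. Shares of all promoters count single windows, so the expressed genes are the like-for-like comparison. The 8-letter form TCACGTGA, which contains the core, was found in 7 members (16.3%: *Atp6v0d1*, *Atp6v0e*, *Atp6v1a*, *Ctsa*, *Ctsd*, *Gla* and *Mcoln1*), against 0.974% of all promoters and 2.2% of the expressed genes. For some of the members described below, 1 site each upstream of the RefSeq start is shown, on the strand of the gene from 5′ to 3′. The core and an adjoining T before it or A after it are in capitals.
Ctsl: gcgttagaagcCACGTGctgatctaaat
Mcoln1: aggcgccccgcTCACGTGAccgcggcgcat
Ctsd: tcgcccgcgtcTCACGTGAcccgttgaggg
Ctsa: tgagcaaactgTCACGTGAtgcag
Gla: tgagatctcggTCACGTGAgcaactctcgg
Atp6v1a: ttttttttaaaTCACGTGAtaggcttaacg
Glb1: ctgcttctgagTCACGTGgcctacagagg
Lamp1: agggcaagataTCACGTGgtccagcgccc
The windows lie at chr13:64370740-64370767 on the minus strand for *Ctsl*, chr8:3500462-3500491 (+) for *Mcoln1*, chr7:142387908-142387937 (-) for *Ctsd*, chr2:164833749-164833772 (+) for *Ctsa*, chrX:134601182-134601211 (-) for *Gla*, chr16:44139373-44139402 (-) for *Atp6v1a*, chr9:114401018-114401046 (+) for *Glb1* and chr8:13159088-13159116 (+) for *Lamp1*. GENCODE places the start of *Ctsl*, *Mcoln1*, *Ctsd*, *Ctsa* and *Atp6v1a* further upstream, so that these windows lie within the gene, and those of *Gla*, *Glb1* and *Lamp1* lie before it. Upstream of the RefSeq start, *Lamp1* held 4 copies of the core, and *Mcoln1*, *Ctsd*, *Gla* and *Atp6v0b* held 2 each. *Ctsl* held the core without the adjoining T or A. The median log2 ratio of MCS to control was -0.04 at ZT2 and 0.13 at ZT14 in the 14 members with the core, and -0.03 and 0.06 in the 28 tested members whose window lacked it. A match of letters is a description of these windows and was not tested for binding.

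Recovered reads per library numbered between 8365590 and 9953243, and 1 read was worth 0.102 to 0.116 CPM. Of 12 clock genes, 11 differed more than 2-fold between ZT2 and ZT14 in control, with *Arntl*, *Per1* and *Nfil3* higher at ZT2 and the 8 others lower, and 6 did in MCS. Macrophage markers were abundant in each library, with *Adgre1* (F4/80) at 1086 to 1900 CPM and the 5 listed macrophage genes at 8039, 7051, 7302 and 8358 CPM together, in the order Cont_ZT2, Cont_ZT14, MCS_ZT2 and MCS_ZT14. Markers of other cells were present as well. All 6 mast cell genes were detected and summed to 1818, 1183, 2240 and 952 CPM, and the 5 B cell genes to 901 to 1279 CPM. The 7 neutrophil genes analysed summed to 16.3, 18.1, 85.5 and 5.52 CPM, with 4 of them at 0 in MCS_ZT14. The 6 red blood cell genes analysed summed to 3.23, 1.32, 36.7 and 112 CPM, with 3, 3, 1 and 0 of them at 0. The 3 eosinophil genes analysed summed to 16.7, 9.78, 28.8 and 56.1 CPM, so that both lists were highest in MCS_ZT14. Their part in the values below was not tested, and in bulk RNA fewer cells of a type and less RNA per cell cannot be told apart.

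Several lysosomal genes were among the most abundant transcripts, whereas others lay near or below the median gene. Together the 51 members took 1.89%, 1.87%, 1.94% and 1.95% of the CPM. Per kb of transcript and averaged over the libraries, *Ctsd* (cathepsin D, an aspartic protease) stood first at 1181 CPM per kb, followed by *Psap* (the precursor of the saposins, which help enzymes to reach sphingolipids) at 997 and *Grn* (progranulin) at 659. The cysteine cathepsins *Ctss* and *Ctsb* came next at 528 and 399 CPM per kb. The median of 14672 genes was 5.64 CPM per kb, and 49 of the 51 members lay above it. *Gla*, the galactosidase deficient in Fabry disease, and *Ctsk*, the main collagen-degrading cathepsin of osteoclasts, lay below it at 4.19 and 0.292 CPM per kb.

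**Figure D1:**
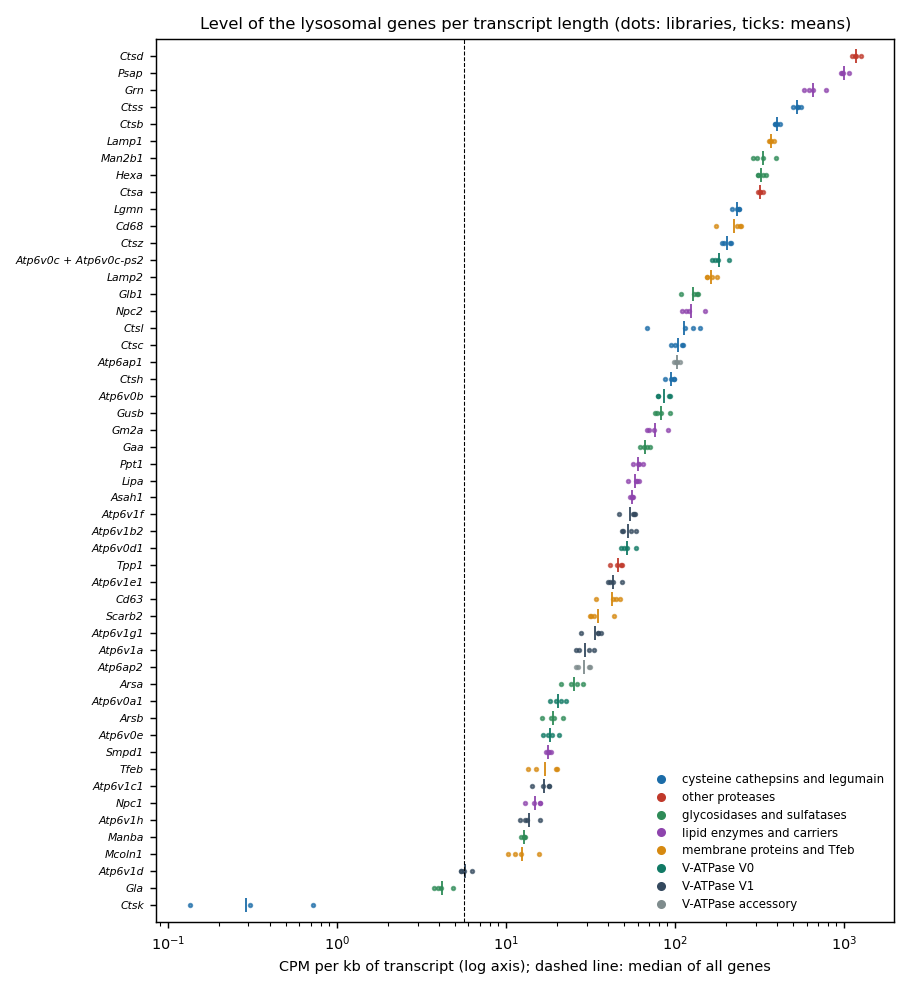
Level of each of the 51 members in CPM per kb of transcript on a log axis, with 1 dot per library (values at 0 not drawn) and a tick at the mean; colours give the functional group and the dashed line the median of all genes. The members span from 0.292 CPM per kb for *Ctsk* to 1181 for *Ctsd*, and the 4 dots of most genes lie close together.

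Within the pump, the proteolipid *Atp6v0c* with its pseudogene was highest at 182 CPM per kb and the stalk subunit *Atp6v1d* lowest at 5.70. The other proteolipid gene, *Atp6v0b*, had 85.9 CPM per kb. V1 subunits otherwise lay between 13.6 for *Atp6v1h* and 54.5 for *Atp6v1f*, the accessory genes *Atp6ap1* and *Atp6ap2* at 102 and 28.9. These levels rest on 1 reference transcript per gene from GENCODE and would shift if the macrophages use another isoform.

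The comparison of MCS with control asked whether the stimulation altered macrophage transcripts at once or after 12 h. In neither case did any of the 50 members tested differ more than 2-fold. Of the 51 members, 50 had at least 10 CPM in every library and entered the comparison, which required a mean above 1 CPM (a log2 mean above 0). At ZT2, 0 of 50 were past 2-fold, against 2.21% of 12612 genes tested, and at ZT14 again 0 of 50, against 3.4% of 12367 genes. Since the members are abundant, genes with a mean of 10 CPM or more over the 4 libraries are the closer background, with 0.255% and 0.695% past 2-fold.

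Smaller differences were more frequent at ZT14 than at ZT2. Past a log2 ratio of 0.32 in either direction, *Mcoln1* was the 1 member higher with MCS at ZT2 and *Atp6v1f* and *Atp6v1g1* were the 2 that were lower, against 11.5% of genes higher and 10.8% lower. At ZT14, 4 members were higher by more than 0.32 (*Ctsl*, *Npc2*, *Scarb2* and *Atp6v1a*) and 4 were lower (*Glb1*, *Cd63*, *Cd68* and *Atp6v1c1*), against 17.1% and 15.7%. Among genes of 10 CPM or more these shares were 5.46% and 5.97% at ZT2, and 12.5% and 11.6% at ZT14. The 8 members of 50 at ZT14 and 3 of 50 at ZT2 therefore did not exceed the background. The median log2 ratio of the members was -0.03 at ZT2, with 22 higher and 28 lower, and 0.06 at ZT14, with 31 higher and 19 lower, beside 0.00 over all genes tested at both times.

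**Figure D2:**
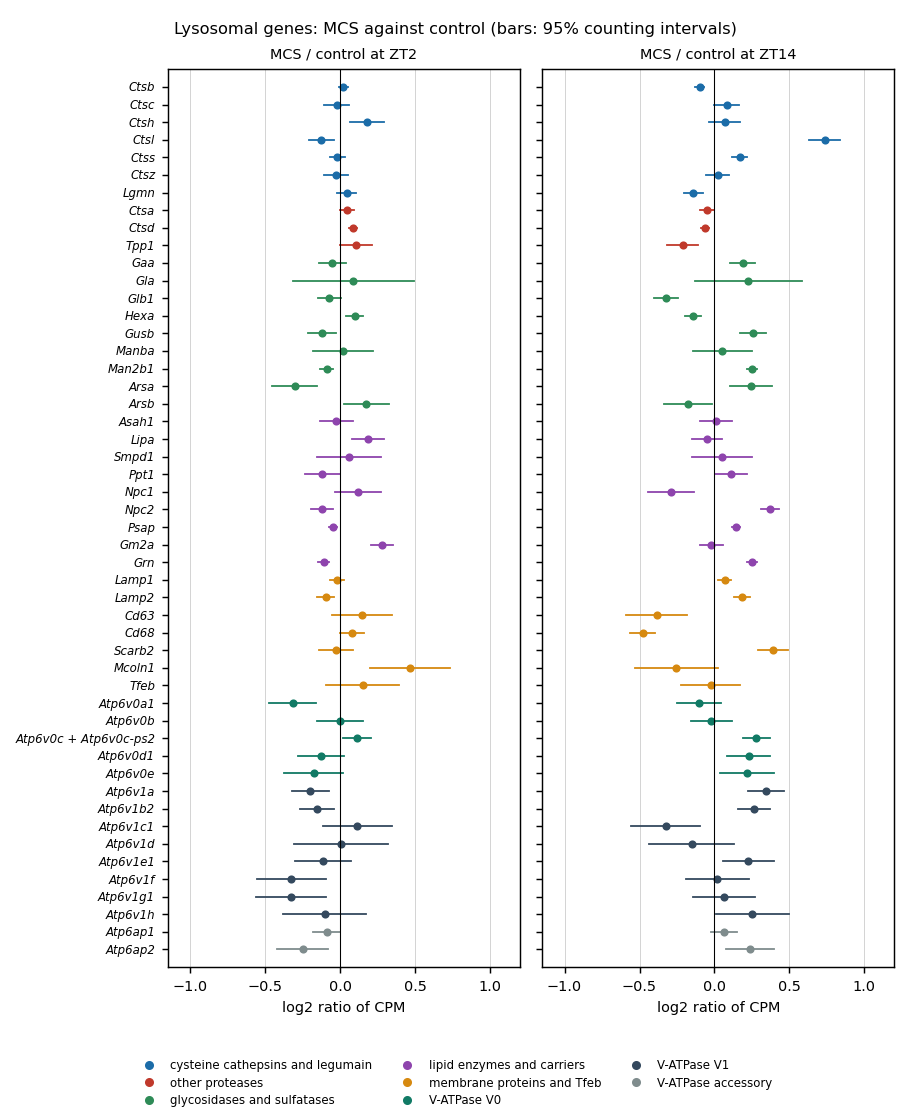
Log2 ratio of MCS to control at ZT2 (left) and at ZT14 (right) for the 50 members with at least 10 CPM, 1 library per condition, with 95% counting intervals from recovered reads; colours give the functional group. *Ctsl* at ZT14 lies furthest from 0 at 0.73, and most V-ATPase genes lie left of 0 at ZT2 and right of 0 at ZT14.

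Log2 ratios were formed after adding 0.1 CPM to each value, and 95% intervals (Clopper-Pearson, exact and conditional on the reads of both libraries) cover counting error only and compare libraries, not mice. The dispersion between libraries was fitted over all genes in a model with additive terms for MCS and time. Without replicates it rests on departures from that model, which include any effect of MCS that differs between the times. It thus comes from the same libraries as the ratios and does not measure the spread between mice. It corresponded to a biological coefficient of variation of 0.14, or an SD of 0.29 for the log2 ratio of 2 libraries. At ZT2, 45 of 50 members lay within that SD, and 41 of 50 at ZT14, against 85.2% and 70.9% of the genes of 10 CPM or more. An interval that excludes no change is therefore no test between conditions.

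Among the cysteine proteases, *Ctsl* (chr13:64359337-64370890, minus strand) had the largest difference of all members. Cathepsin L is an endopeptidase that acts in protein breakdown and in the trimming of the invariant chain. It had 276 CPM in Cont_ZT2, 135 in Cont_ZT14, 253 in MCS_ZT2 and 225 in MCS_ZT14, so that the control library at ZT14 was the low one. MCS stood above control at ZT14 by 0.73 on the log2 scale (95% interval 0.63 to 0.84) and below it at ZT2, with -0.13 (-0.21 to -0.04).

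The other cathepsins varied little. *Ctsb*, the most abundant cysteine cathepsin by CPM, had 1863, 1969, 1890 and 1841 CPM in the same order of libraries. Log2 ratios of MCS to control of the 6 other cysteine proteases tested (*Ctsb*, *Ctsc*, *Ctsh*, *Ctss*, *Ctsz* and legumain, *Lgmn*) lay between -0.14 for *Lgmn* at ZT14 and 0.18 for *Ctsh* at ZT2. *Ctsk* had 4 reads in Cont_ZT2, 10 in Cont_ZT14, 0 in MCS_ZT2 and 2 in MCS_ZT14, that is 0.462, 1.10, 0 and 0.205 CPM. The floor of 3 reads is 0.348 CPM in MCS_ZT2, and *Ctsk* did not reach the minimum mean in any comparison. Of 5 osteoclast markers listed, *Acp5* was the 1 analysed here, at 47.4 to 58.8 CPM.

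The 3 remaining proteases leaned the same way. Cathepsin D (*Ctsd*) had 2515, 2481, 2672 and 2378 CPM, with MCS_ZT2 the highest and MCS_ZT14 the lowest. Its log2 ratio of MCS to control was 0.09 at ZT2 and -0.06 at ZT14. The carboxypeptidase *Ctsa*, also a protective partner of other lysosomal enzymes, had 0.05 and -0.05. *Tpp1*, a tripeptidyl peptidase and the least abundant of the 3, had 161, 170, 173 and 147 CPM, giving 0.10 and -0.21 (95% interval -0.32 to -0.11). All 3 were thus higher at ZT2 and lower at ZT14 with MCS, by less than the SD fitted above.

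Glycosidases and sulfatases summed to 2816, 2933, 2737 and 3127 CPM. The alpha-mannosidase *Man2b1* made up the largest share, with 1174, 1272, 1102 and 1513 CPM, and the library MCS_ZT14 stood above the others. Its log2 ratio of MCS to control was -0.09 at ZT2 and 0.25 at ZT14 (95% interval 0.21 to 0.29). *Glb1*, the acid beta-galactosidase used as a marker of senescent cells, had 327, 324, 311 and 259 CPM and was lowest in MCS_ZT14, with a log2 ratio of -0.32 (95% interval -0.40 to -0.25).

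The pair of sulfatases differed in direction. *Arsa*, which desulfates sulfatide, had 91.7, 84.7, 74.2 and 100 CPM, with log2 ratios of MCS to control of -0.30 at ZT2 and 0.24 at ZT14. *Arsb*, which acts on dermatan sulfate and chondroitin sulfate, had 78.0, 74.3, 87.9 and 65.7 CPM and ratios of 0.17 and -0.18. *Gusb* (beta-glucuronidase) had -0.12 and 0.26, and *Hexa*, a hexosaminidase subunit, 0.10 and -0.14. *Gla*, the least abundant, had 11.9, 13.2, 12.6 and 15.4 CPM, and *Gla* and *Manba* had intervals that included no change in both comparisons. *Gaa*, the acid glucosidase that degrades glycogen, had -0.05 and 0.19.

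Genes of the lipid group, with *Grn* counted among them, summed to 5360, 5389, 5215 and 6045 CPM, with MCS_ZT14 the highest library. This was the largest sum of any group as grouped here, and no sum without *Grn* was formed. *Psap* was the most abundant gene of the group, with 2625, 2576, 2538 and 2843 CPM. *Grn* had 1456, 1537, 1350 and 1827 CPM, a log2 ratio of MCS to control of -0.11 at ZT2 and 0.25 at ZT14. *Npc2*, which hands cholesterol to the membrane protein NPC1, had 396, 383, 364 and 494 CPM, a log2 ratio of 0.37 at ZT14 (95% interval 0.31 to 0.43). *Npc1* itself went the other way at ZT14, with 76.2, 82.7, 82.8 and 67.7 CPM and a ratio of -0.29.

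*Gm2a*, the activator of ganglioside GM2 breakdown, had 309, 288, 375 and 284 CPM and stood out in MCS_ZT2, at 0.28 on the log2 scale against control (95% interval 0.20 to 0.35). *Lipa*, the acid lipase that frees cholesterol from its esters, had 0.19 at ZT2 and -0.05 at ZT14. The acid sphingomyelinase *Smpd1*, the least abundant of the group, had 41.5, 42.7, 43.1 and 44.3 CPM. The acid ceramidase *Asah1* and *Smpd1* had intervals that included no change at both times. *Ppt1*, a thioesterase that removes fatty acids from proteins, had -0.12 and 0.11.

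**Figure D3:**
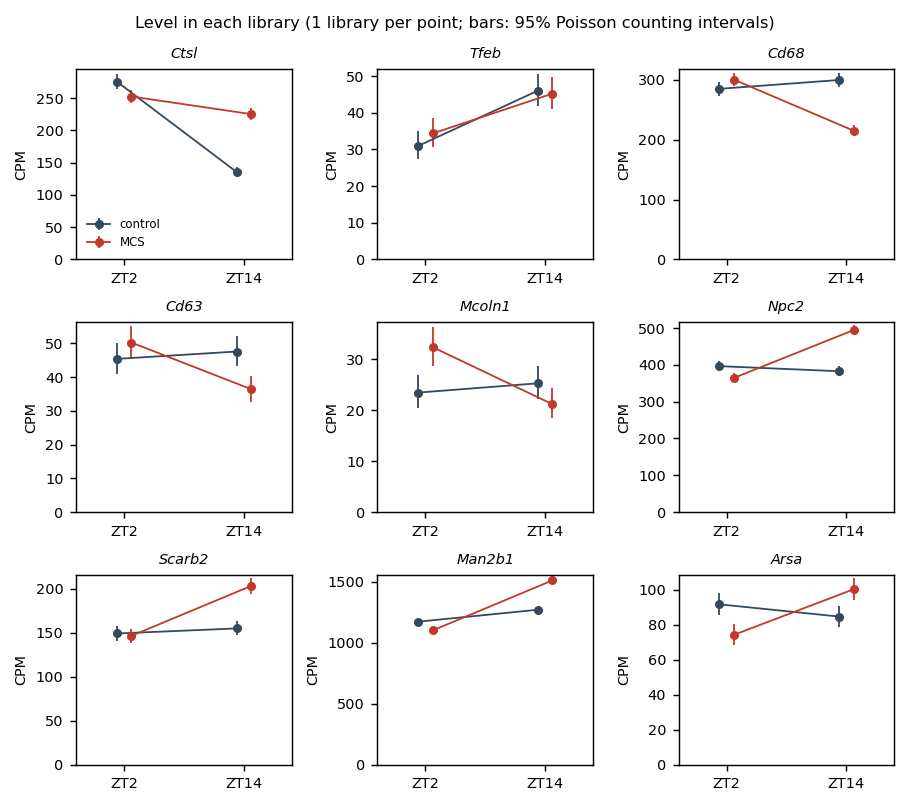
CPM of 9 members in the 4 libraries, by time of day (x axis) and treatment (dark points control, red points MCS, offset sideways), 1 library per point with 95% Poisson counting intervals. *Ctsl* is low in control at ZT14 alone, *Tfeb* is higher at ZT14 in both treatments, and *Cd68*, *Cd63* and *Mcoln1* are lowest and *Npc2*, *Scarb2*, *Man2b1* and *Arsa* highest in MCS at ZT14.

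The membrane proteins did not move as a group. *Lamp1*, a heavily glycosylated protein of the lysosomal membrane and the most abundant here, had 808, 819, 796 and 859 CPM. *Lamp2*, which also serves chaperone-mediated autophagy, had log2 ratios of MCS to control of -0.10 at ZT2 and 0.18 at ZT14. *Cd68* (chr11:69664213-69666153, minus strand), a sialomucin of macrophage endosomes and lysosomes and a widely used macrophage marker, had 285, 299, 300 and 215 CPM. The library MCS_ZT14 was the low one, at -0.48 on the log2 scale against control (95% interval -0.56 to -0.40). *Adgre1*, by contrast, was highest in that library, at 1900 against 1361 CPM in Cont_ZT14.

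*Cd63*, a tetraspanin of late endosomes, lysosomes and mast cell granules, had 45.4, 47.6, 50.2 and 36.4 CPM. Its log2 ratio of MCS to control was 0.15 at ZT2 and -0.38 at ZT14 (95% interval -0.59 to -0.18). The mast cell genes ordered MCS and control the same way, at 2240 against 1818 CPM at ZT2 and 952 against 1183 CPM at ZT14. Between ZT2 and ZT14 in control they fell from 1818 to 1183 CPM, whereas *Cd63* had 45.4 and 47.6 CPM. The part of mast cells in *Cd63* was not tested. *Scarb2*, the receptor that carries beta-glucocerebrosidase to lysosomes, had 149, 155, 147 and 203 CPM and was highest in MCS_ZT14, with 0.39 (95% interval 0.29 to 0.49).

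*Mcoln1* (chr8:3500457-3515232, plus strand), a calcium channel of the lysosomal membrane and the least abundant of these genes, had 23.4, 25.3, 32.4 and 21.2 CPM. The MCS_ZT2 library was the high one. The log2 ratio of MCS to control was 0.46 at ZT2 (95% interval 0.20 to 0.73) and -0.25 at ZT14 (-0.53 to 0.02). *Tfeb* (chr17:47737030-47792419, plus strand) had 31.0 CPM in Cont_ZT2, 46.0 in Cont_ZT14, 34.3 in MCS_ZT2 and 45.2 in MCS_ZT14. MCS and control differed little at either time, with 0.15 and -0.03, and both intervals included no change.

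Of the 15 V-ATPase features, 11 were lower with MCS at ZT2 and 11 were higher with MCS at ZT14. Their median log2 ratios were -0.13 and 0.22, beside 0.02 and 0.05 over the 35 other members tested. Pump genes outside the members did not share this pattern. Of 4 tested, 4 were higher with MCS at ZT2 and 3 at ZT14, with medians of 0.19 and 0.06. At ZT2 none of their intervals excluded no change, and 0 of the 4 were lower and then higher. For the 15 features, the intervals excluded no change for 8 at ZT2, 7 of them lower, and for 9 at ZT14, 8 of them higher. Over all genes the interval lay below no change for 11% and above it for 11.5% at ZT2, and for 18.9% and 18.7% at ZT14. Among genes of 10 CPM or more these shares were 14.0% and 13.7%, and 23.4% and 22.3%. In CPM the pump genes summed to 1315, 1260, 1222 and 1403, so that MCS_ZT2 was the lowest and MCS_ZT14 the highest library. The sum of the 5 genes of large peritoneal macrophages ordered the libraries the same way, at 1401, 1277, 1221 and 1513 CPM. Singly these genes differed: *Icam2* and *Cd5l* were lower with MCS at ZT2 and higher at ZT14. *Timd4* and *Vsig4* were lowest in MCS_ZT14, and *Gata6* was higher with MCS at both times. The 5 genes of small peritoneal macrophages had 1269, 1162, 1530 and 1104 CPM, highest in MCS_ZT2 and lowest in MCS_ZT14, and the 5 general macrophage markers were highest in MCS_ZT14, at 8358 CPM, and lowest in Cont_ZT14, at 7051. The part of these cells in the pump values was not tested.

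In the V1 sector, the catalytic subunit gene *Atp6v1a* had 132, 110, 114 and 140 CPM. Its log2 ratio of MCS to control was -0.20 at ZT2 (95% interval -0.32 to -0.08) and 0.34 at ZT14 (0.22 to 0.46). *Atp6v1b2*, its nucleotide-binding partner and the most abundant V1 gene by CPM, had 154, 138, 139 and 165 CPM, with -0.16 and 0.26. The stalk genes *Atp6v1f* and *Atp6v1g1* were lower in MCS_ZT2 only. *Atp6v1f* had 40.9, 39.7, 32.6 and 40.2 CPM, and *Atp6v1g1* had 39.6, 39.7, 31.5 and 41.4 CPM, each with a log2 ratio of -0.33 at ZT2. At ZT14 the values were 0.02 and 0.06.

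*Atp6v1c1*, which encodes the subunit that tethers V1 to V0, was the exception. It had 34.5, 37.1, 37.3 and 29.7 CPM and was lowest in MCS_ZT14, with a log2 ratio of -0.32 (95% interval -0.56 to -0.09). *Atp6v1d*, with 19.9, 23.1, 19.9 and 20.8 CPM the least abundant V1 gene, had intervals that included no change throughout. *Atp6v1e1* and *Atp6v1h* had 0.23 and 0.25 at ZT14 and -0.11 and -0.10 at ZT2.

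In the V0 sector, *Atp6v0c* (chr17:24163866-24169702, minus strand) had 197, 204, 213 and 212 CPM. Its processed pseudogene *Atp6v0c-ps2* (chr6:37806086-37806550, plus strand) had 0 reads in 3 libraries and 351 reads, 35.9 CPM, in MCS_ZT14. The transcripts match in 99.8% of 465 aligned bases, with 1 mismatch, so the reads cannot be assigned to one or the other with certainty. *Atp6v0c* alone had a log2 ratio of 0.05 at ZT14, and the sum, with 197, 204, 213 and 248 CPM, had 0.28 (95% interval 0.19 to 0.37). The sum at ZT14 thus moves with the pseudogene row.

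*Atp6v0b* had 79.2, 93.2, 79.2 and 91.8 CPM, and at both times the MCS and control libraries lay close together, with ZT14 above ZT2. *Atp6v0a1*, the membrane subunit that holds the proton path, had 90.5, 85.0, 72.6 and 79.1 CPM and was lower with MCS at both times, with -0.32 and -0.10. *Atp6v0d1* and *Atp6v0e* had -0.13 and -0.18 at ZT2 and 0.23 and 0.22 at ZT14, with *Atp6v0e* the least abundant V0 gene at 52.4, 49.7, 46.4 and 57.8 CPM. Of the accessory genes, *Atp6ap1*, an assembly factor of the pump, had 235, 215, 221 and 225 CPM and *Atp6ap2*, known as the prorenin receptor, had 72.0, 62.4, 60.6 and 73.4 CPM. *Atp6ap2* had -0.25 at ZT2 and 0.23 at ZT14.

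The comparisons at ZT2 and at ZT14 share no library, so their directions can be set side by side. Of the 50 members, 26 were lower with MCS at ZT2 and higher at ZT14, 17 were the reverse, and 7 had the same sign. Over all genes the first and second pattern each took about the same share, 29.5% and 29.3%. With both intervals excluding no change, 12 members were lower and then higher, against 5.32% of 12236 genes (7.13% of those of 10 CPM or more), and 3 were higher and then lower, against 4.88% (6.54%). The 12 were *Ctsl*, *Gusb*, *Man2b1*, *Arsa*, *Ppt1*, *Npc2*, *Psap*, *Grn*, *Lamp2*, *Atp6v1a*, *Atp6v1b2* and *Atp6ap2*, and the 3 were *Ctsd*, *Hexa* and *Arsb*. Of the 5 listed macrophage genes, 4 met the same criterion of lower and then higher (*Adgre1*, *Itgam*, *Csf1r* and *Cd14*), with *Adgre1* at -0.29 and 0.48. Of the 5 large peritoneal macrophage genes, 2 met it (*Icam2* and *Cd5l*), with *Cd5l* at -0.36 and 0.68. None of the 5 small peritoneal macrophage genes met it, and 1 of them, *Retnla*, was higher and then lower. The 5 B cell genes showed neither pattern. Of the 6 mast cell genes, 4 were higher and then lower. The part of these cells in the members' directions was not tested. The members are more abundant than most genes, which narrows their intervals, and the part of depth in these counts was not tested.

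Time of day was compared within each treatment, ZT2 against ZT14. In control, the lysosomal genes were close to level: 1 of 50 members, *Ctsl*, was past 2-fold, against 3.61% of 12465 genes (1.38% of those of 10 CPM or more). Its log2 ratio of ZT2 to ZT14 was 1.02 (95% interval 0.92 to 1.12), and in MCS 0.16 (0.08 to 0.25). *Tfeb* was lower at ZT2 in both treatments, with -0.57 (95% interval -0.80 to -0.35) in control and -0.40 (-0.61 to -0.18) in MCS. *Ctsl* and *Tfeb* were the 2 members past a log2 ratio of 0.32 in control, 1 higher and 1 lower, against 16.3% and 12.1% of genes (8.63% and 9.39% of those of 10 CPM or more). The median absolute log2 ratio was 0.09 over the members, beside 0.18 over all genes and 0.14 over those of 10 CPM or more.

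In MCS the difference between the times was larger. Of 50 members, 0 were past 2-fold, against 5.82% of 12533 genes (1.82% of those of 10 CPM or more). Past a log2 ratio of 0.32, 6 members were higher at ZT2 (*Arsb*, *Gm2a*, *Cd63*, *Cd68*, *Mcoln1* and *Atp6v1c1*) and 8 were lower (*Man2b1*, *Arsa*, *Npc2*, *Grn*, *Scarb2*, *Tfeb*, *Atp6v1g1* and *Atp6v1h*), against 21.1% and 19.9% of genes, or 14.4% and 18.3% of those of 10 CPM or more. *Mcoln1* was highest at ZT2 relative to ZT14, with 0.61 (95% interval 0.35 to 0.88), and *Scarb2* lowest, with -0.47 (-0.58 to -0.37). The median absolute log2 ratio was 0.25 over the members, beside 0.26 over all genes and 0.22 over those of 10 CPM or more. It was larger in MCS than in control for 35 of the 50 members (70.0%), for 59.9% of all genes and for 61.3% of those of 10 CPM or more.

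In MCS most pump genes lay on the same side. This comparison uses the same MCS libraries as those of MCS with control above, so it is not an independent observation. Of the 15 features, 14 were lower at ZT2 than at ZT14, the exception being *Atp6v1c1* with a log2 ratio of 0.33 (95% interval 0.10 to 0.57). The median was -0.28, and 11 of the 14 had intervals below 0, from *Atp6v1h* with -0.39 to *Atp6v0b* with -0.21. The summed *Atp6v0c* feature is among them through its pseudogene row. *Atp6v0c* alone had 212.6 CPM in MCS_ZT2 and 212.1 in MCS_ZT14. Intervals lay below 0 for 22.2% of all genes and above it for 21.9%, or for 27.9% and 23.9% of those of 10 CPM or more. In control 9 were higher and 6 lower, with a median of 0.06, and 35 other members had 15 higher and 20 lower. In MCS those 35 were evenly placed, with 17 higher and 18 lower. With the ribosomal RNA precursor *Rn45s* left out of the totals, 13 of the 15 pump features were lower at ZT2 in MCS. *Rn45s* took 4.47% of the CPM in MCS_ZT2 and 6.18% to 6.52% in the other libraries.

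**Figure D4:**
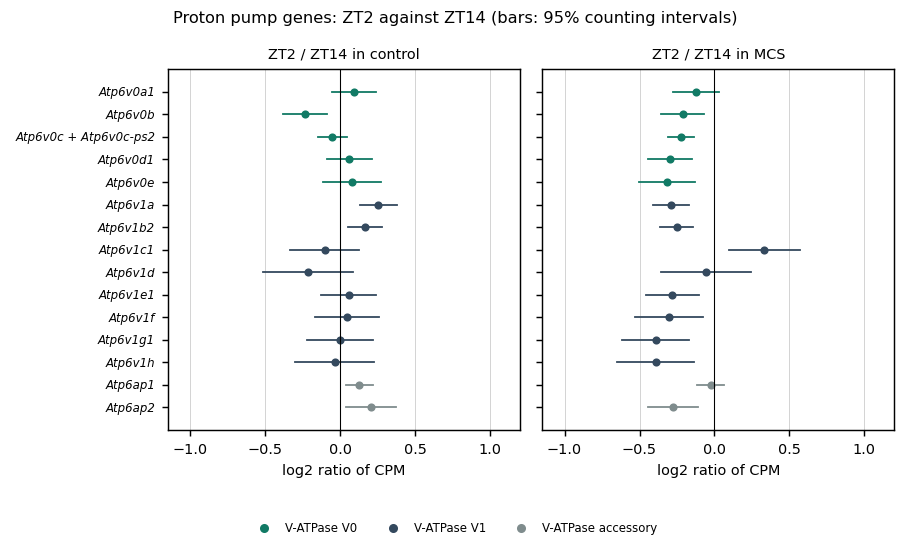
Log2 ratio of ZT2 to ZT14 for the 15 V-ATPase features in control (left) and in MCS (right), 1 library per condition, with 95% counting intervals; colours give the sector. In control the points lie on both sides of 0, between -0.23 and 0.25, and in MCS all but *Atp6v1c1* lie below 0. *Atp6v0c* is drawn summed with its pseudogene, which had reads in MCS_ZT14 only.

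A model of the recovered reads over the 4 libraries, with additive terms for MCS and for time (edgeR, 1 residual degree of freedom), gave the only test that the design allows. A single MCS effect is fitted to both times, so a gene whose direction turned is missed. The MCS term called 0 of 50 members, with 0 at an unadjusted p under 0.05, against 0.185% of 12403 genes called and 2.44% past the unadjusted threshold. The time term called 0 of 50 members, with 2 at an unadjusted p under 0.05, against 2.41% and 10.4%. The 2 were *Ctsl* (edgeR adjusted p = 0.102) and *Tfeb* (edgeR adjusted p = 0.249). DESeq2 with the same terms called 0 members for MCS and 0 for time, and 0 and 1 had an unadjusted p under 0.05. Without the filter on low counts the edgeR adjusted p of *Ctsl* for time was 0.0455.

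Other genes of the pathway were taken from 6 lists that held 94 genes besides the members, 91 of them tested. Their median log2 ratios of MCS to control were 0.00 at ZT2 and 0.02 at ZT14. At ZT2, 1 of 91 was past 2-fold, against 2.21% of all genes tested, and at ZT14 again 1, against 3.4%. Between the times, 1 passed in control and 3 in MCS, against 3.61% and 5.82% of all genes tested. The edgeR count test called 0 of the 91 for MCS and 0 for time, against 0.185% and 2.41% of all genes tested. In edgeR, 2 and 8 had an unadjusted p under 0.05, against 2.44% and 10.4%. DESeq2 also called 0 and 0, with 0 and 1 at an unadjusted p under 0.05. *Ctsg*, cathepsin G of neutrophil and mast cell granules, had 2.89, 2.42, 8.35 and 2.25 CPM. It was high in MCS_ZT2, with a log2 ratio of 1.5 to control (95% interval 0.86 to 2.25), the library in which the neutrophil genes (85.5 CPM) and mast cell genes (2240 CPM) were also highest.

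*Ctsw*, a cathepsin of cytotoxic lymphocytes, had 3.93, 1.32, 4.99 and 2.86 CPM, lowest in Cont_ZT14, with a log2 ratio of MCS to control of 1.06 at ZT14 (95% interval 0.10 to 2.23). The 6 genes of T and NK cells ordered the libraries the same way, at 39.5, 22.0, 47.9 and 27.0 CPM. *Atp6v1g2*, a pump subunit of neurons, had 2.89, 2.75, 3.60 and 1.33 CPM. *Lamtor4*, part of the complex that docks mTORC1 on lysosomes, had 29.3, 24.5, 20.9 and 42.1 CPM, with a log2 ratio of ZT2 to ZT14 in MCS of -1.01.

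Among the 30 other hydrolases, 12 were higher and 18 lower with MCS at ZT2, and 19 higher and 11 lower at ZT14. Over all genes tested, 50.6% were higher with MCS at ZT2 and 50.4% at ZT14. Lysozyme *Lyz2* was the most abundant, with 17454, 17605, 17344 and 18847 CPM. Of the genes that sort enzymes to lysosomes, *Ap3d1* was the most abundant, at 167 to 196 CPM, and 7 of 13 were higher with MCS at ZT2 and 5 at ZT14. *Laptm5* led the 17 other membrane proteins tested, with 2076 to 2185 CPM, and 5 of them were higher with MCS at ZT2 and 7 at ZT14. *Tcirg1*, the V0 subunit a3 of osteoclasts and macrophages, had 92.5, 127, 101 and 131 CPM and was lower at ZT2 in both treatments, with log2 ratios of -0.46 and -0.37.

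The list of factors of the TFEB family and of nutrient signalling was led by *Fnip1*, at 88.8 to 111 CPM. Of its 16 genes, *Tfeb* included, 11 were higher with MCS at ZT2 and 9 at ZT14. For phagosome and lysosome fusion, 12 of 13 listed genes were analysed here, led by the small GTPase gene *Rab7* at 231 to 279 CPM. With MCS, 8 of the 12 were higher at ZT2 and 5 at ZT14, beside 50.6% and 50.4% of all genes tested.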

How the data were processed

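The authors trimmed reads with Trimmomatic 0.38, estimated counts with RSEM 1.3.0 and Bowtie2 and deposited CPM normalized by edgeR (build mm10 per the submitters' processing notes; annotation not given in the sources used here). Libraries were rRNA-depleted and stranded. The table gives symbols and no coordinates. It has 4 columns of values, all used. Each deposited CPM was divided by the CPM of 1 read, and 100% of values came out whole within 0.05 read. Totals were 8658191 (Cont_ZT2), 9217493 (Cont_ZT14), 8365590 (MCS_ZT2) and 9953243 (MCS_ZT14) reads, and 3 reads, the limit that a count of 0 allows, equal 0.307 to 0.348 CPM.

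Log2 ratios used a pseudocount of 0.1 CPM and understate changes of low genes. Genes counted as past a fold needed a log2 mean of the 2 libraries above 0. Clopper-Pearson intervals (95%) cover counting error only. The count test was edgeR's quasi-likelihood test with Benjamini-Hochberg adjustment over all genes with at least 40 reads. As every condition had 1 library, no condition could be tested against another. Ratios and count test were tested on simulated data. Alternatives were pseudocounts of 1 and 0.01, other minimums, 1.5-fold and 1.25-fold thresholds, rescaling, other count models and separate rows for *Atp6v0c* and *Atp6v0c-ps2*.

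The members and lists were chosen with earlier results of these data known. Values by library are given for members past 1.5-fold, the proteolipid genes and the most and least abundant of each group, with others beside them chosen after their values were seen. Genes outside the list are named if past 2-fold or the most abundant of their list. *Tfeb* stands both among the members and in the TFEB family list.

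Gene coordinates and transcript lengths came from GENCODE vM21 and promoters from RefSeq (GRCm38.p6, the assembly of mm10). Near-identical transcripts were searched with blastn 2.17.0. *Ctsd*, *Cd63*, *Atp6ap2* and *Atp6v1g1* share stretches with transcripts not analysed here, so some of their reads are uncertain. Software was Python 3.11.15, numpy 2.4.6, pandas 2.3.3, scipy 1.17.1, matplotlib 3.10.9, R 4.3.3, edgeR 4.0.16 and DESeq2 1.42.0.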

Additional observations from a re-analysis of the deposited data

Results flagged for a closer look

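Of the 50 members tested, 15 had opposite log2 ratios of MCS to control at ZT2 and at ZT14 with both counting intervals excluding no change. The difference was not tested, since each condition had 1 library. The log2 ratio at ZT14 minus that at ZT2 was 0.859 for *Ctsl*, 0.548 for *Arsa*, 0.543 for *Atp6v1a*, 0.492 for *Npc2*, 0.483 for *Atp6ap2* and 0.419 for *Atp6v1b2*. It was 0.376 for *Gusb*, 0.359 for *Grn*, 0.342 for *Man2b1*, 0.283 for *Lamp2*, 0.227 for *Ppt1* and 0.191 for *Psap*. It was below 0 for *Arsb* (-0.349), *Hexa* (-0.239) and *Ctsd* (-0.148). Of all 12236 genes tested at both times, 651 were lower and then higher with MCS by the same criterion, and 597 higher and then lower.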

How the results depend on the processing

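Counts of members past 2-fold were 0 for MCS against control at ZT2, 0 at ZT14, 1 for ZT2 against ZT14 within control and 0 within MCS. Without a minimum level they were 1, 1, 2 and 1, since *Ctsk* with its 0 to 10 reads passed. At a log2 ratio of 0.32 they were 3, 8, 2 and 14, and at 1.5-fold 1 for MCS against control at ZT14 and 1 for ZT2 against ZT14 in MCS. With *Atp6v0c* and *Atp6v0c-ps2* apart, the pseudogene passed in MCS against control at ZT14 (1) and in ZT2 against ZT14 in MCS (1), and the count test, in an alternative added after the data were seen, called it for MCS and for time (1 each). The time term called 1 member, *Ctsl*, without the filter on low counts. Its adjusted p for time ranged from 0.0455 to 0.669 over the alternatives. The median log2 ratios of the members stayed between -0.03 and -0.01, 0.05 and 0.06, -0.01 and 0.01, and -0.11 and -0.07 in the 4 comparisons. No paired analysis was possible and no library could be left out, because each condition had 1 library.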
